A study of Mus musculus with 10 samples.

Results

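Cells of clone 4T1-T that carried the first hairpin against Serpine2 (shSerpine2-1) were compared with cells of the same clone that carried the second (shSerpine2-2). The 2 libraries of shSerpine2-1 and the 2 of shSerpine2-2, each called A and B, make up 4 of the 10 RNA sequencing libraries of the series, and they were taken by the hairpin named in their titles. The other libraries are 2 each of shSlpi-1 and shSlpi-2, which carry hairpins against Slpi, and of shRenilla, the control, whose hairpin targets the Renilla luciferase of a sea pansy. All lines were infected with a hairpin, so none is uninfected. They all descend from 1 clone, which was grown from a single cell of 4T1, a metastatic mouse mammary carcinoma line, and each hairpin is known here from 1 line. The hairpins were set against each other knowing that they lower Serpine2 to different levels and that Slpi differs between them.

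A short hairpin RNA is cut by the cell into a small interfering RNA, which guides the silencing complex to transcripts that match it. Hairpins against the same transcript commonly lower it to different depths, and each can also act on transcripts it was not made for. Serpine2 (protease nexin-1) is a secreted serpin that traps thrombin, urokinase and related serine proteases, and Slpi is a small secreted inhibitor of neutrophil elastase and cathepsin G. Both inhibitors are studied in this clone for vascular mimicry, in which tumour cells line channels that carry blood.

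Levels are given as normalized counts, which are reads scaled between libraries by the authors and do not account for gene length. Differences are shSerpine2-1 minus shSerpine2-2 on the scale of log2(normalized count + 1), each with its standard error (SE). Adjusted p-values come from limma fitted to all 12299 genes with a mean of at least 10, with the Benjamini-Hochberg method, and a gene is said to be higher, lower or changed when its adjusted p was under 0.05. With 2 libraries in each group, values are also given for each library. Nothing given with the samples states that A and B are separate cultures. The p-values therefore reflect only how far libraries of the same group scatter, pooled over all 10 libraries, and that scatter could be technical. It was widest in shSlpi-2, where A and B differed by a median of 0.144 on the log2 scale. The same median was 0.078 in shSerpine2-1 and 0.075 in shSerpine2-2. The depth of knockdown, other actions of a hairpin and differences between the infected lines cannot be told apart in this design.

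Depth was 16518650 and 15877431 reads in shSerpine2-1, against 21079611 and 24026620 reads in shSerpine2-2. All 10 libraries had high levels of the epithelial genes Krt8 (3172 to 4405 normalized counts) and Cdh1 (9155 to 12918 normalized counts). The endothelial marker Cdh5, the leukocyte marker Ptprc and the fibroblast marker Col1a1 averaged 8.01, 5.08 and 6.27 normalized counts in shSerpine2-1, and 2.90, 0.878 and 5.64 normalized counts in shSerpine2-2. Of 6 tested markers of endothelial cells, leukocytes and fibroblasts, limma called 0, with 1 at an unadjusted p under 0.05 and 1 called by limma voom. The summed level of 12 fibroblast markers, 92.9% of it Pdgfra, was 647 to 673 normalized counts in shSerpine2-1, 789 to 800 in shSerpine2-2 and 902 to 925 in shRenilla. The 14 endothelial markers summed to 916 to 986, 999 to 1016 and 956 to 1063 normalized counts in the same order of groups, and the 12 leukocyte markers to 147 to 155, 142 to 153 and 149 to 150. In bulk RNA, fewer cells of a type and less RNA per cell cannot be told apart.

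The first hairpin left less Serpine2 than the second. Serpine2 (chromosome 1, 79794197 to 79861180 on GRCm38, minus strand) had 128 and 139 normalized counts in shSerpine2-1, 489 and 514 in shSerpine2-2 and 3256 and 3145 in shRenilla. The groups lay far apart and no libraries overlapped. Means were 134 ± 7.94 in shSerpine2-1 and 501 ± 17.5 in shSerpine2-2 (SD, n = 2 each), a difference of -1.90 (SE 0.07). The level in shRenilla was 23.9 times that of shSerpine2-1 and 6.38 times that of shSerpine2-2.

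Of the Serpine2 hairpins, only shSerpine2-1 came with less Slpi than shRenilla. The gene is encoded on chromosome 2 (164354070 to 164389095, minus strand), apart from Serpine2. Its normalized counts were 326 and 414 in shSerpine2-1, 1111 and 1218 in shSerpine2-2 and 1189 and 1313 in shRenilla. The shSerpine2-2 and shRenilla libraries overlapped, while both shSerpine2-1 libraries lay below them. The difference between the hairpins was -1.66 (SE 0.12). Against shRenilla it was -1.76 in shSerpine2-1 and -0.10 in shSerpine2-2, and the second did not pass the test (limma adjusted p = 0.554). Both contrasts against shRenilla use the same control libraries, and over all genes 10.5% changed in the first and 27.5% in the second. Because the hairpins were paired for these differences, the Serpine2 and Slpi values are a description.

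The genes that came with the choice of the comparison are the peptide hormone gene Cck, the calcification inhibitor Mgp and the gel-forming mucin Muc6. As they came with that choice, their values and p-values are a description as well. Cck, the cholecystokinin gene, had 91.3 and 89.4 normalized counts in shSerpine2-1, 418 and 493 in shSerpine2-2 and 253 and 302 in shRenilla. The 3 groups did not overlap, with shRenilla between the hairpins. Cck was 5.04-fold lower in shSerpine2-1 than in shSerpine2-2 (log2 difference -2.32, SE 0.16, limma adjusted p = 2.05e-07), the largest fall among changed genes averaging 50 or more normalized counts. Mgp, the matrix Gla protein gene, had 36.8 and 47.6 normalized counts in shSerpine2-1, 123 and 148 in shSerpine2-2 and 114 and 118 in shRenilla. Only the shSerpine2-1 libraries stood apart from shRenilla by the test, and the difference between the hairpins was -1.66 (SE 0.26, limma adjusted p = 7.37e-04). Muc6 went the other way, with 143 and 182 normalized counts in shSerpine2-1, 69.4 and 70.5 in shSerpine2-2 and 112 and 115 in shRenilla. The difference was 1.19 (SE 0.14, limma adjusted p = 6.15e-05), and shRenilla again lay between the hairpins.

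**Figure D1:**
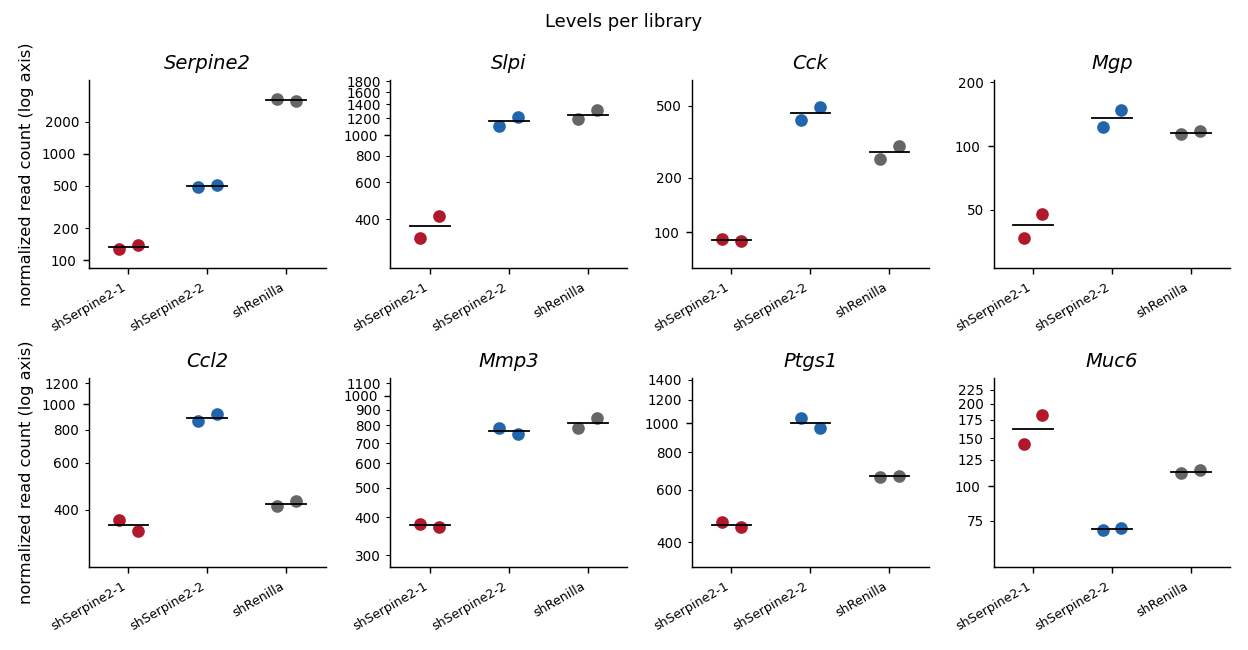
Normalized counts on log axes of 8 genes in each library of shSerpine2-1 (left), shSerpine2-2 (middle) and shRenilla (right); each point is a library and each line the mean of 2. Serpine2 is lowest in shSerpine2-1 and highest in shRenilla, Slpi and Mmp3 are low in shSerpine2-1 only of these 3 groups, Ccl2 is high in shSerpine2-2 only, and Cck, Ptgs1 and Muc6 have shRenilla between the hairpins.

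Across all genes, 1805 of 12299 changed between the hairpins (14.7%), of which 859 were higher (6.98%) and 946 lower (7.69%) in shSerpine2-1. Most differences were small. The median change of these genes was 1.24-fold, and 94 differed by at least 1 on the log2 scale, 57 higher and 37 lower. The libraries of the hairpins did not overlap for any of the 1805. This adds no support, as passing the test largely requires it, and the share over all genes was not counted. The count was 498 or 635 without shSerpine2-1 library A or B, and 696 or 404 without shSerpine2-2 library A or B. It was 3599 when only these 4 libraries were fitted, 1701 higher and 1898 lower. Counts in the lists below under another fit are to be read beside the counts over all genes in that fit. The changed genes had higher levels than all genes tested. Median levels were 1341 normalized counts among higher genes, 844 among lower genes and 452 among all genes tested. The lists and all genes were not matched for level. Single genes below kept their call without any 1 of the 4 libraries unless stated. Where a list is given 0 genes higher or lower, limma voom called 0 as well, and 0 to 1 had an unadjusted p under 0.05 unless stated.

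Long genes were over-represented on the higher side and short genes on the lower side. The median exonic length was 7458 bases among higher genes, 3518 bases among lower genes and 4426 bases among all genes tested. Genes were split by length into 5 bins of equal size. In the bin of shortest genes 2.03% were higher and 11.2% lower, and in the bin of longest genes 16.7% were higher and 3.85% lower. Against shRenilla, the median difference of shSerpine2-2 was 0.072 in the shortest bin and -0.062 in the longest. That of shSerpine2-1 was -0.029 and 0.012, with the shRenilla libraries common to both. Reads over 1464 smell, pheromone and taste receptor genes, which mammary cells are not known to use, moved with the hairpins too. Per 1000000 reads they made up 37.1 and 38.5 in shSerpine2-1, 12.5 and 12.7 in shSerpine2-2 and 22.9 and 23.3 in shRenilla. The part of both in the gene differences was not tested. With the trend on length removed from each library, 1569 genes changed, 788 higher and 781 lower, and 1223 of the 1805 were among them with the same direction.

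**Figure D2:**
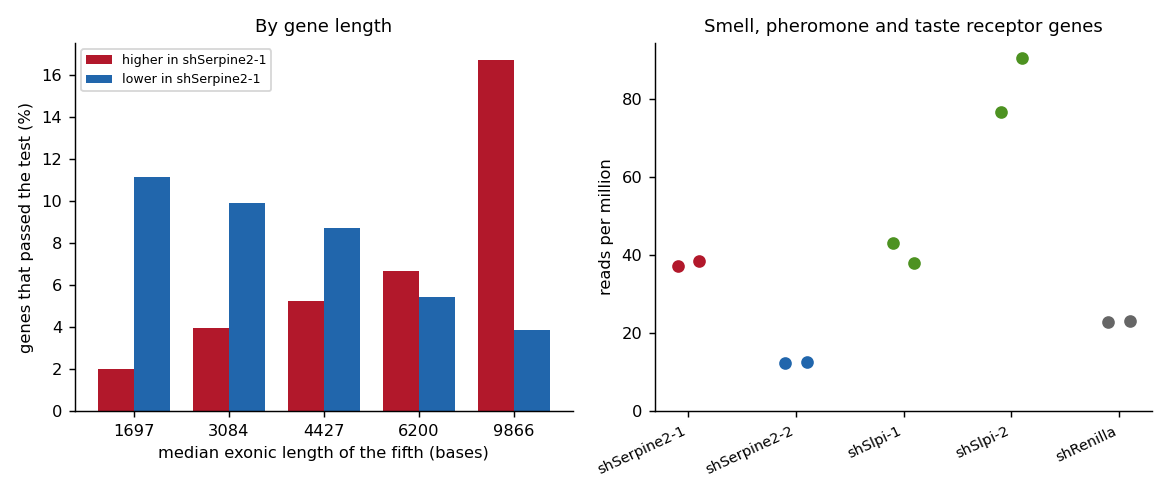
Left, the percentage of genes that were higher (red) or lower (blue) in shSerpine2-1 than in shSerpine2-2, in 5 bins of exonic length given by their median in bases. Right, reads per 1000000 over receptor genes of smell, pheromones and taste in each library; the shSerpine2-1 points lie at 37.1 and 38.5 and the shSerpine2-2 points at 12.5 and 12.7.

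Several genes of inflammation were lower in shSerpine2-1. Of 32 tested genes of NF-kB and inflammatory cytokines, 12 were lower and 1 higher in shSerpine2-1, with a median difference of -0.25 against -0.01 over all genes. Ccl2, which draws monocytes, had 365 and 333 normalized counts in shSerpine2-1, 862 and 917 in shSerpine2-2 and 412 and 431 in shRenilla. Here shSerpine2-2 was the group that stood apart, and the hairpins differed by -1.35 (SE 0.14, limma adjusted p = 1.56e-05). The neutrophil chemokine Cxcl5 had the same layout, with 304 and 260 normalized counts in shSerpine2-1, 604 and 545 in shSerpine2-2 and 297 and 270 in shRenilla. It differed by -1.03 (SE 0.10).

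Other immune genes were laid out differently. The complement gene C3 had 149 and 115 normalized counts in shSerpine2-1, 327 and 296 in shSerpine2-2 and 253 and 249 in shRenilla, a difference of -1.24 (SE 0.13, limma adjusted p = 1.61e-05). The cytokine gene Tslp, whose product acts on dendritic cells, had 618 and 610 normalized counts in shSerpine2-1, 1039 and 1011 in shSerpine2-2 and 1532 and 1582 in shRenilla. Both hairpins were thus below shRenilla for Tslp, shSerpine2-1 by 0.74 more on the log2 scale (SE 0.10). The membrane-bound chemokine Cx3cl1 differed by -0.73 and Tnfaip2, a gene induced by TNF, by -0.40. Ptgs1, which encodes cyclooxygenase-1 of prostaglandin synthesis, had 467 and 449 normalized counts in shSerpine2-1, 1044 and 963 in shSerpine2-2 and 663 and 666 in shRenilla. Its difference was -1.13 (SE 0.08, limma adjusted p = 2.05e-07), with each hairpin on its own side of shRenilla. Lcn2, an iron-carrier binding protein of secretory epithelium, was a weakly expressed case with 8.91 and 4.64 normalized counts in shSerpine2-1, 33.4 and 40.6 in shSerpine2-2 and 56.9 and 54.0 in shRenilla. Its call was lost without shSerpine2-1 library B (limma adjusted p = 0.0570) and without shSerpine2-2 library B (limma adjusted p = 0.0614).

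Some genes that display antigen were lower, by smaller amounts. Of 20 tested genes of MHC class I antigen presentation, 5 were lower and 0 higher, among them H2-D1 (-0.33), H2-K1 (-0.30), the peptide-loading factor Tapbp (-0.43) and the chaperone Calr (-0.30). With only the 4 Serpine2 hairpin libraries fitted, 8 were lower and 0 higher. H2-D1 and H2-K1 are close copies of each other, so their separate values are uncertain. Tapbp had 761 and 813 normalized counts in shSerpine2-1, 1011 and 1115 in shSerpine2-2 and 854 and 846 in shRenilla. Interferon-stimulated genes did not lean one way beyond the background, with 5 of 46 lower (10.9%) and 3 higher, and 2 lower and 0 to 1 higher without 1 of the 4 libraries. Ifitm3, a membrane protein that restricts viral entry, was the first of them by p, with 4121 and 4263 normalized counts in shSerpine2-1, 6228 and 6441 in shSerpine2-2 and 4907 and 5349 in shRenilla.

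Several proteases that cut extracellular matrix were lower in shSerpine2-1. Of 27 tested extracellular proteases, 7 were lower (25.9%) and 2 higher. Leaving out any 1 of the 4 libraries left 3 lower and 0 to 1 higher, and fitting only those 4 gave 11 lower and 4 higher. The stromelysin gene Mmp3 had 381 and 373 normalized counts in shSerpine2-1, 785 and 747 in shSerpine2-2 and 787 and 844 in shRenilla, a difference of -1.02 (SE 0.08, limma adjusted p = 8.27e-07). The gelatinase gene Mmp9 had 175 and 157 normalized counts in shSerpine2-1, 414 and 408 in shSerpine2-2 and 335 and 329 in shRenilla, a difference of -1.31 (SE 0.11, limma adjusted p = 1.04e-06). Mmp10, the second stromelysin, had 99.1 and 103 normalized counts in shSerpine2-1, 191 and 195 in shSerpine2-2 and 124 and 158 in shRenilla. Only shSerpine2-1 was below shRenilla for Mmp3, while Mmp9 lay below shRenilla in shSerpine2-1 and above it in shSerpine2-2. The collagenase gene Mmp13, named after its values were seen, had 44.6 and 43.0 normalized counts in shSerpine2-1, 72.9 and 93.4 in shSerpine2-2 and 73.7 and 85.9 in shRenilla. It differed by -0.90 (SE 0.25, limma adjusted p = 0.0243), but it lost its call without any 1 of the 4 libraries, with limma adjusted p-values of 0.123 and 0.127 without shSerpine2-1 library A and B and of 0.0598 and 0.224 without shSerpine2-2 library A and B.

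Mmp13, Mmp3 and Mmp10 lie in 1 cluster on chromosome 9, in that order, and all 3 were lower in shSerpine2-1. Other genes of the cluster are not given here. Over all of chromosome 9, 11.7% of tested genes were higher and 5.42% lower. The 120 bases before each gene's start, on the plus strand of GRCm38.p6 (RefSeq), are shown because these neighbours were lower together, with TGANTCA, the form that AP-1 factors (Fos and Jun) bind, in capitals. It reads the same on both strands. They run from chr9:7272394-7272513 for Mmp13, chr9:7445702-7445821 for Mmp3 and chr9:7502222-7502341 for Mmp10.
Mmp13: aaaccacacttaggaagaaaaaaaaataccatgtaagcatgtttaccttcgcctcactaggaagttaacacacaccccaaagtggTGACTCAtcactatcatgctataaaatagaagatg
Mmp3: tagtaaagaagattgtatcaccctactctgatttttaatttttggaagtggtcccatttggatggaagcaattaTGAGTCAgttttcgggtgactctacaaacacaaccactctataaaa
Mmp10: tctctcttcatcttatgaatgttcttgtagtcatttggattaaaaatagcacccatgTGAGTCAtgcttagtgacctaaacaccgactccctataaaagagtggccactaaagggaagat
Each held the motif 1 time, starting 35, 46 and 63 bases before the start of Mmp13, Mmp3 and Mmp10. Among 32851 RefSeq promoter windows of 250 bases before and 50 after the start, 2565 (7.81%) held it. Those windows are longer than the 120 bases shown, and these genes were picked for being lower, so this is not a like comparison. A match is a description of these letters and not a shown binding site.

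Among the AP-1 and other immediate early genes, 2 of 27 were lower (7.41%) and 3 higher (11.1%), and without 1 of the 4 libraries 1 to 2 were lower and 1 to 2 higher. Egr1, a zinc-finger factor induced by growth signals, was higher, with 861 and 807 normalized counts in shSerpine2-1, 529 and 482 in shSerpine2-2 and 902 and 910 in shRenilla. Ier5 moved the other way, with 823 and 893 normalized counts in shSerpine2-1, 1339 and 1383 in shSerpine2-2 and 867 and 835 in shRenilla. In both genes it was shSerpine2-2 that differed from shRenilla by the test. The AP-1 subunit gene Jun was lower by 0.24 in shSerpine2-1, and its call was lost without shSerpine2-1 library A or B or shSerpine2-2 library B (limma adjusted p = 0.117, 0.0679 and 0.142).

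The genes of plasminogen activation and the other protease inhibitors were counted next. Plau, the urokinase gene, had 2574 and 2566 normalized counts in shSerpine2-1, 3394 and 3176 in shSerpine2-2 and 3146 and 3071 in shRenilla. It was lower by -0.35 on the log2 scale (SE 0.05, limma adjusted p = 4.86e-04), and it was 1 of 2 lower among 18 tested genes of plasminogen activation, coagulation and thrombin receptors, with 0 higher and 1 lower when a library was left out. Of 19 tested protease inhibitors other than Serpine2 and Slpi, 4 were lower (21.1%) and 2 higher (10.5%), and without 1 of the 4 libraries 0 to 3 were lower and 0 higher, against 8 lower and 3 higher with only those 4 fitted. Of 11 tested lysosomal cathepsins, 5 were lower (45.5%) and 0 higher, and 2 to 4 were lower when 1 of the 4 libraries was left out. With the trend of the differences with gene length removed, 3 cathepsins were lower. Ctsl, among the most abundant transcripts here, had 43812 and 44589 normalized counts in shSerpine2-1, 59048 and 59992 in shSerpine2-2 and 49328 and 48633 in shRenilla. Ctsd differed by -0.38 (SE 0.05).

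Ligands and receptors of vessel growth and cell guidance were lower in part. Of 28 tested angiogenic factors, 9 were lower (32.1%) and 5 higher (17.9%), and of 33 tested guidance ligands and receptors 11 were lower and 1 higher. Leaving out 1 of the 4 libraries left 6 to 7 angiogenic factors lower and 0 to 1 higher, and 3 to 6 guidance genes lower and 0 to 1 higher. With the length trend removed 8 angiogenic factors were lower and 3 higher. With only the 4 Serpine2 hairpin libraries fitted 15 were lower and 5 higher. The angiogenic factors named here were picked by smallest p, and all are lower ones. The netrin gene Ntn1 had 129 and 152 normalized counts in shSerpine2-1, 248 and 253 in shSerpine2-2 and 188 and 191 in shRenilla. Its receptor gene Unc5b had 2067 and 2055 normalized counts in shSerpine2-1, 2821 and 2859 in shSerpine2-2 and 1918 and 1937 in shRenilla. Ligand and receptor were thus both lower in shSerpine2-1, by 0.84 (SE 0.13) and 0.46 (SE 0.05) on the log2 scale. The semaphorin gene Sema7a differed by -0.66 (SE 0.09), and Nrp2, a co-receptor of semaphorins and VEGF, by -0.33 (SE 0.04). Vegfa, which drives the growth of blood vessels, had 638 and 619 normalized counts in shSerpine2-1, 817 and 818 in shSerpine2-2 and 827 and 782 in shRenilla, so that only shSerpine2-1 lay apart. The EGF receptor ligands Areg and Tgfa differed by -0.47 (SE 0.07) and -0.34 (SE 0.05).

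The Notch ligand genes Dll4 and Dll1 were both lower. Dll4, known for sprouting vessels, had 85.8 and 104 normalized counts in shSerpine2-1, 229 and 197 in shSerpine2-2 and 247 and 196 in shRenilla, a difference of -1.16 (SE 0.15, limma adjusted p = 1.39e-04). Dll1 had 89.1 and 90.6 normalized counts in shSerpine2-1, 166 and 163 in shSerpine2-2 and 127 and 110 in shRenilla, a difference of -0.87 (SE 0.15). For Dll4 the shSerpine2-2 and shRenilla libraries overlapped, and for Dll1 they did not. In all, 3 of 20 tested Notch pathway genes were lower and 1 higher. Of 19 genes that the literature ties to vascular mimicry, 3 were lower and 0 higher, Vegfa and Nrp2 among them. Itgb3, the integrin beta-3 subunit that pairs with integrin alpha-v in tumour cells and endothelium, had 189 and 183 normalized counts in shSerpine2-1, 435 and 432 in shSerpine2-2 and 287 and 281 in shRenilla. It differed by -1.21 (SE 0.10, limma adjusted p = 2.25e-06). Its ligand gene Spp1 (osteopontin) had 11751 and 11583 normalized counts in shSerpine2-1, 15464 and 15891 in shSerpine2-2 and 23343 and 25626 in shRenilla. Both hairpins were below shRenilla for Spp1, shSerpine2-1 by 0.43 more (SE 0.05).

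**Figure D3:**
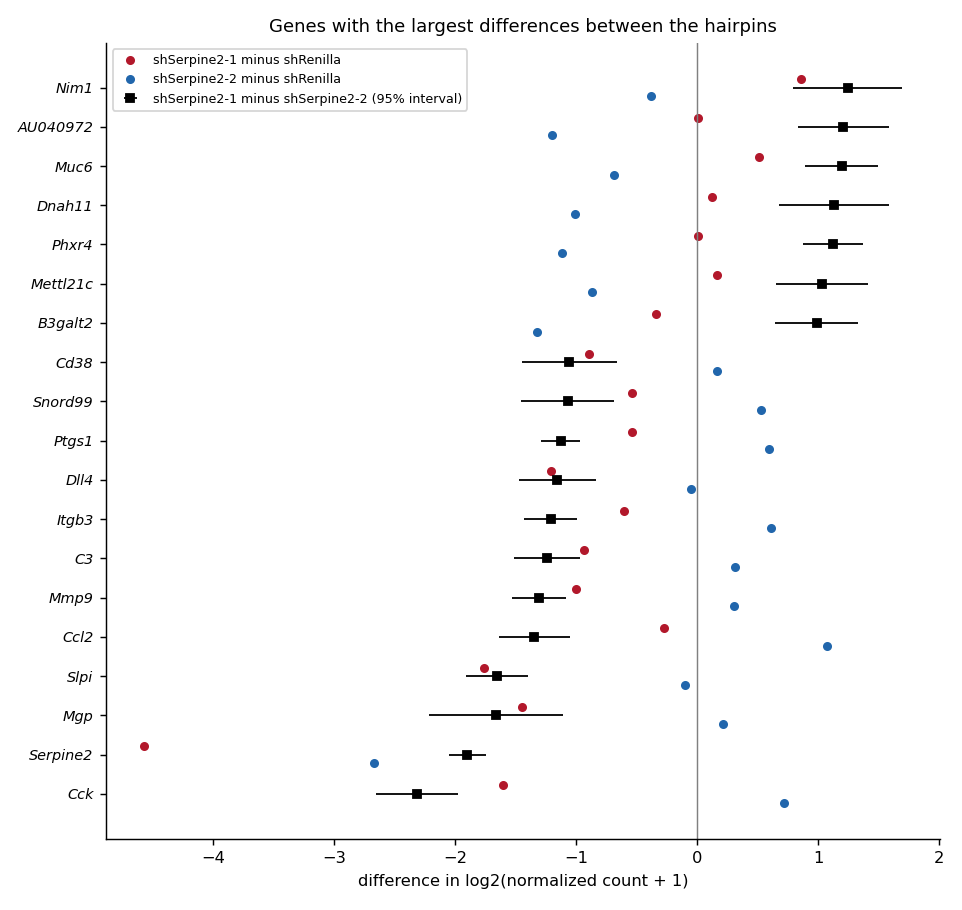
Log2 differences of the genes that rose most (top, 7 of 14) and fell most (bottom, 12 of 14) in shSerpine2-1 against shSerpine2-2 and kept their call without any 1 of the 4 libraries, for changed genes averaging 50 or more normalized counts whose libraries do not overlap. Black squares are shSerpine2-1 minus shSerpine2-2 with the 95% interval from limma, red points shSerpine2-1 minus shRenilla and blue points shSerpine2-2 minus shRenilla; most genes at the top have red points near 0 and blue points below 0.

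The 14 properly named genes with the largest rise in shSerpine2-1 were weakly to moderately expressed, with group means of 25.4 to 272 normalized counts. Over them shSerpine2-1 differed from shRenilla by -0.34 to 0.86 and shSerpine2-2 by -1.32 to -0.38 on the log2 scale, with the shRenilla libraries common to both. B3galt2, a galactosyltransferase gene, had 192 and 251 normalized counts in shSerpine2-1, 112 and 108 in shSerpine2-2 and 273 and 282 in shRenilla. Phxr4 had 264 and 280 normalized counts in shSerpine2-1, 133 and 116 in shSerpine2-2 and 279 and 263 in shRenilla, a difference of 1.12 (SE 0.12, limma adjusted p = 1.61e-05). In both it was shSerpine2-2 that lay apart from shRenilla. Nim1, a kinase gene, was the case among the 14 where shSerpine2-1 alone lay apart by the test. It had 81.3 and 90.6 normalized counts in shSerpine2-1, 38.6 and 32.9 in shSerpine2-2 and 48.5 and 45.2 in shRenilla. Muc6, also among the 14, passed the test against shRenilla in both hairpins. AU040972, the axonemal dynein gene Dnah11 and the methyltransferase gene Mettl21c differed by 1.21, 1.13 and 1.03.

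The remaining 7 of the 14 were each lost without at least 1 library. Tmprss11f was lost without shSerpine2-1 library A (limma adjusted p = 0.0934) and shSerpine2-2 library B (0.0973), and Rn4.5s without shSerpine2-1 library A (0.0762) and shSerpine2-2 library A (0.0744). Smok4a was lost without shSerpine2-1 library B (limma adjusted p = 0.0654) and shSerpine2-2 library B (0.0956). Prg4 was lost without shSerpine2-1 library B (limma adjusted p = 0.182) and shSerpine2-2 libraries A and B (0.0678 and 0.0881). Kcnip4 was lost without shSerpine2-1 libraries A and B (limma adjusted p = 0.180 and 0.160) and shSerpine2-2 library B (0.448), and Ankrd29 without any 1 of the 4 (0.0553 to 0.0757). Among the 14 genes with the largest fall, Ace, which encodes angiotensin-converting enzyme, was lost without shSerpine2-1 library B (limma adjusted p = 0.142) and shSerpine2-2 libraries A and B (0.0916 and 0.0729), and the homeobox gene Rhox5 without shSerpine2-1 library B (0.0566).

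Muc4 and Meg3 were weakly expressed genes that were higher in shSerpine2-1. Muc4, a membrane mucin, had 42.3 and 31.3 normalized counts in shSerpine2-1, 0.878 and 2.30 in shSerpine2-2 and 3.16 and 11.02 in shRenilla. In shSerpine2-2 this is 1 and 3 reads, so the size of the difference depends on the pseudocount. The imprinted non-coding RNA Meg3 had 11.1 and 16.3 normalized counts in shSerpine2-1, 0 and 1.53 in shSerpine2-2 and 1.05 and 3.31 in shRenilla. For both the order of the 3 groups was that of the receptor gene reads given above, and the part of those reads was not tested. The same order holds for Muc6.

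Some genes of cell division and RNA silencing were higher, by small amounts. Of 60 tested cell cycle genes, 10 were higher (16.7%) and 4 lower, and 2 to 6 were higher when 1 of the 4 libraries was left out, against 24 higher and 7 lower with only those 4 fitted. Mki67, the gene of the proliferation antigen Ki-67, had 71082 and 71468 normalized counts in shSerpine2-1, 58363 and 57667 in shSerpine2-2 and 63371 and 67305 in shRenilla, a difference of 0.30 (SE 0.05). The spindle gene Nusap1 differed by 0.32 (SE 0.05). Of 18 tested genes of small RNA machinery, through which hairpins act, 5 were higher (27.8%) and 0 lower, and without 1 library 2 to 3 were higher. The exonuclease gene Xrn1 had 2748 and 2625 normalized counts in shSerpine2-1, 2023 and 1899 in shSerpine2-2 and 2641 and 2682 in shRenilla. Ago3, an Argonaute of the silencing complex, differed by 0.31 (SE 0.06). These genes are long, with a median exonic length of 8938.5 bases in the list, and with the length trend removed 2 were higher and 2 lower. The cell cycle list then had 14 higher and 3 lower.

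Part of the genes of protein folding and amino acid supply were lower in shSerpine2-1, and most members did not pass the test. Of 29 tested ER chaperones and genes of the unfolded protein response, 12 were lower (41.4%) and 1 higher, and of 35 genes of the Atf4 amino acid program 11 were lower (31.4%) and 0 higher. Without 1 of the 4 libraries these counts were 4 to 6 and 2 to 6 lower, and with only those 4 fitted they were 18 and 19. The median of the Atf4 list was -0.17 between the hairpins, 0.16 in shSerpine2-1 against shRenilla and 0.36 in shSerpine2-2 against shRenilla. Slc6a9, a glycine transporter gene, had 222 and 212 normalized counts in shSerpine2-1, 351 and 351 in shSerpine2-2 and 198 and 202 in shRenilla. Canx, the ER lectin chaperone calnexin, had 16975 and 17449 normalized counts in shSerpine2-1, 24522 and 23604 in shSerpine2-2 and 19959 and 19834 in shRenilla, a difference of -0.48 (SE 0.05, limma adjusted p = 2.70e-05). The ER export gene Derl1 differed by -0.35 (SE 0.05). Atf4 itself, the transcription factor of that program, differed by -0.36 (SE 0.07) and was lost without shSerpine2-2 library B (limma adjusted p = 0.0531).

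Part of the members of each metabolic list were lower, by small amounts. Of 74 tested nuclear genes of oxidative phosphorylation 20 were lower (27.0%), of 34 of hypoxia and glycolysis 10 (29.4%), of 31 of the proteasome 8 (25.8%), of 37 of cholesterol and fatty acid synthesis 8 (21.6%), of 33 Nrf2 antioxidant genes 6 (18.2%) and of 78 cytosolic ribosomal protein genes 13 (16.7%), with 0 higher in each. At an unadjusted p under 0.05, 0 to 2 members of each were higher, and limma voom called 0 higher. With the length trend removed, 11, 6, 2, 10, 4 and 6 members were lower in the same order, and 0, 1, 1, 1, 1 and 2 were higher. The respiratory chain and ribosomal lists are short genes, with median exonic lengths of 1756 and 1775.5 bases. Without 1 of the 4 libraries, 1 to 5 oxidative phosphorylation genes, 3 glycolysis genes, 0 to 3 proteasome genes, 2 to 3 lipid synthesis genes, 2 to 3 antioxidant genes and 0 to 7 ribosomal genes were lower. With only the 4 Serpine2 hairpin libraries fitted, 44, 13, 16, 12, 15 and 51 members were lower in the order of the lists above, and 0, 1, 2, 1, 1 and 1 were higher. The counts thus fell when a library of the pair was left out and were larger when the other groups were. So did the counts over all genes, and list counts were not set against them by a test. Cox6c, a subunit of cytochrome oxidase, had 984 and 976 normalized counts in shSerpine2-1, 1280 and 1398 in shSerpine2-2 and 1089 and 1113 in shRenilla. The autophagy receptor gene Sqstm1 had 1540 and 1549 normalized counts in shSerpine2-1, 2184 and 2190 in shSerpine2-2 and 1399 and 1366 in shRenilla. The ferritin gene Fth1, which stores iron, had 20076 and 20237 normalized counts in shSerpine2-1, 25676 and 27370 in shSerpine2-2 and 19836 and 21015 in shRenilla. In Sqstm1 and Fth1 shSerpine2-2 lay above shRenilla by the test, and shSerpine2-1 did not pass it.

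Genes of cell identity changed in both directions. Of 38 tested genes of epithelial state 2 were higher and 2 lower (5.26% each), and of 18 of mesenchymal state 3 were higher (16.7%) and 4 lower (22.2%). Without 1 of the 4 libraries, 1 to 2 epithelial genes were higher and 0 lower, and 0 to 2 mesenchymal genes were higher and 2 lower. The desmosome gene Pkp2 of the epithelial list differed by 0.37 (SE 0.07). The lower epithelial genes were Itgb4 and Epcam, and both lost their call when any 1 of the 4 libraries was left out. The keratin gene Krt8 belongs to another list, that of milk and mammary differentiation, and differed by -0.29 (SE 0.05). In that list 3 of 9 tested genes were lower and 1 higher. Fgfr1, a growth factor receptor gene of the mesenchymal list, had 184 and 182 normalized counts in shSerpine2-1, 321 and 295 in shSerpine2-2 and 327 and 355 in shRenilla. Only shSerpine2-1 was below shRenilla there. The aryl hydrocarbon receptor targets Cyp1b1 and Aldh3a1 differed by -0.61 (SE 0.06) and -1.13 (SE 0.21), and were the 2 lower among 6 tested targets. The test called 0 of the 6 higher, while 2 had an unadjusted p under 0.05 in that direction. With only the 4 Serpine2 hairpin libraries fitted, 2 targets were higher and 2 lower.

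**Figure D4:**
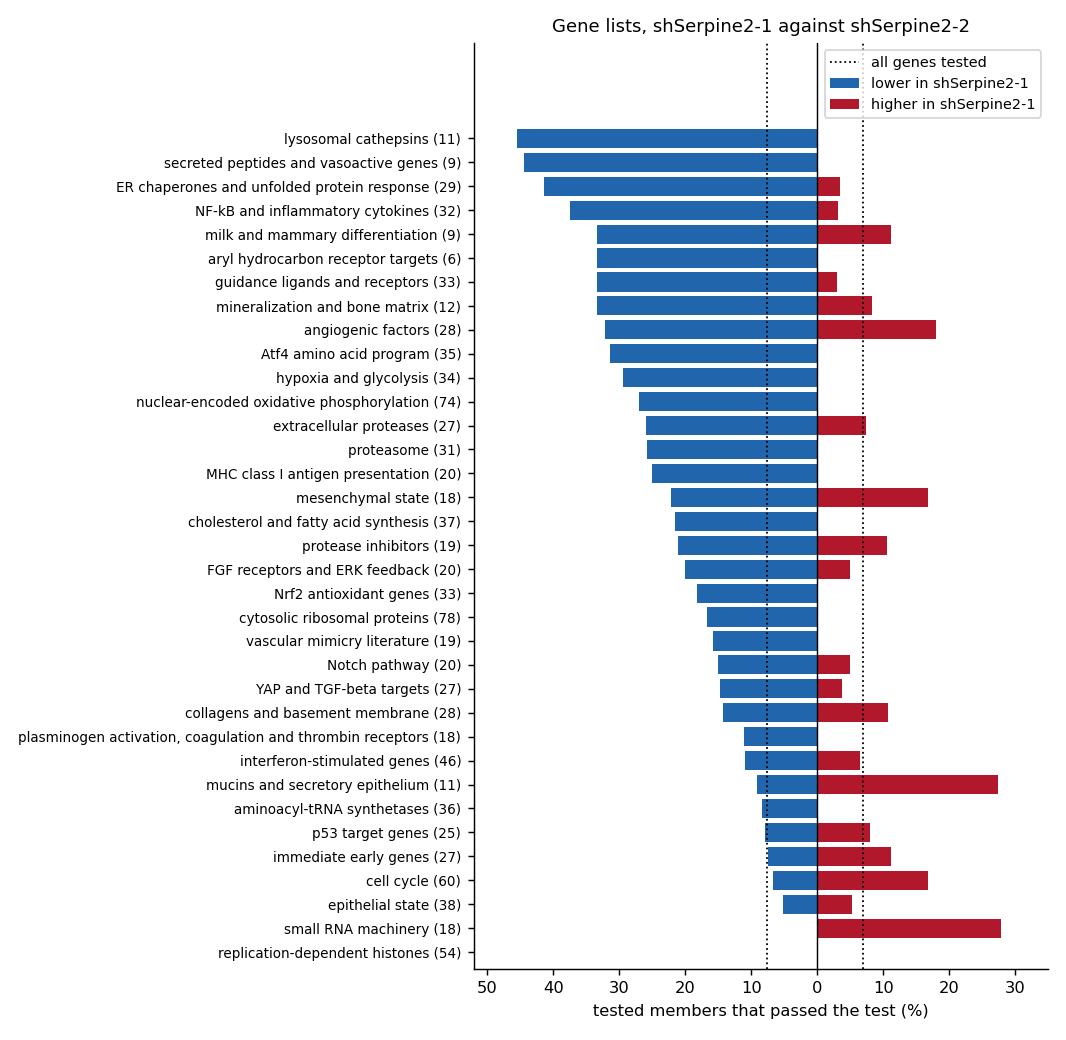
Percentage of tested members of each gene list, with their number in brackets, that were lower (blue, to the left) or higher (red, to the right) in shSerpine2-1 than in shSerpine2-2. Dotted lines mark 7.69% and 6.98% over all genes tested, which are not matched to the lists for expression level. Most lists exceed the dotted line on the lower side.

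Since Slpi was low in shSerpine2-1, the hairpin difference was set beside the mean of both Slpi hairpins minus shRenilla. That contrast uses none of the same libraries. Serpine2 was lower with the Slpi hairpins too, so both target genes are lower on both sides. Its normalized counts were 1342 and 1331 in shSlpi-1, 1553 and 1731 in shSlpi-2 and 3256 and 3145 in shRenilla. The part of either gene in the shared changes was not tested. With the Slpi hairpins 4281 genes changed (34.8%). Of the 1805 genes that differed between the Serpine2 hairpins, 220 changed in the same direction with the Slpi hairpins (12.2% of the first list and 5.14% of the second) and 899 in the opposite direction (49.8% and 21.0%). Over all 12299 genes, which share their library preparation and their spread of lengths, Pearson's r was -0.02 and Spearman's rho -0.30. On the deposited log2 values r was -0.29 and rho -0.37, with a mean of at least 50 they were -0.24 and -0.39, and without the filter on low values they were 0.41 and 0.22. With shSlpi-1 alone 209 genes had the same and 404 the opposite direction, and with shSlpi-2 alone 191 and 1059.

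The genes with large differences were counted on their own, without Serpine2 and Slpi, the genes that the hairpins target. Of 23 others that differed by at least 1 on the log2 scale between the Serpine2 hairpins, with a mean of at least 50 and no overlap between the hairpins, 15 changed with the Slpi hairpins, 12 in the same direction and 3 in the opposite one. These counts describe the genes chosen, and they were not tested against those of genes with smaller differences. Slpi, the target of the Slpi hairpins, had 145 and 147 normalized counts in shSlpi-1 and 60.9 and 75.8 in shSlpi-2, below the 326 and 414 of shSerpine2-1. Cck had 60.5 and 77.0 normalized counts in shSlpi-1 and 51.2 and 63.4 in shSlpi-2, against 253 and 302 in shRenilla. Mmp3 had 357 and 393 normalized counts in shSlpi-1 and 320 and 313 in shSlpi-2, against 787 and 844 in shRenilla. These levels of Cck and Mmp3 lie at or below those of shSerpine2-1, except that 1 shSlpi-1 library of Mmp3 exceeded both. Mgp (-1.51), Ace (-2.57), Fgfr1 (-1.45) and Spp1 (-1.43) were also lower with the Slpi hairpins than with shRenilla, and Muc6 was higher (0.95). The ribosomal RNA precursor Rn45s and Lars2, a mitochondrial leucine-tRNA ligase gene, had opposite signs and differed by -0.93 and -1.02 between the Serpine2 hairpins and by 1.76 and 2.38 with the Slpi hairpins. Rn45s took 0.928% and 0.881% of reads in shSerpine2-1, 1.83% and 1.62% in shSerpine2-2, 1.96% and 1.89% in shSlpi-1, 6.88% and 6.91% in shSlpi-2 and 1.00% and 1.21% in shRenilla. Reads of the repeated Rn45s locus cannot be placed to 1 copy, so its values are uncertain. By its share of reads Lars2 ordered the groups as Rn45s did. That share ran from 0.0307% in both shSerpine2-1 libraries to 0.377% and 0.450% in shSlpi-2. Why Lars2 and Rn45s moved together was not tested.

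**Figure D5:**
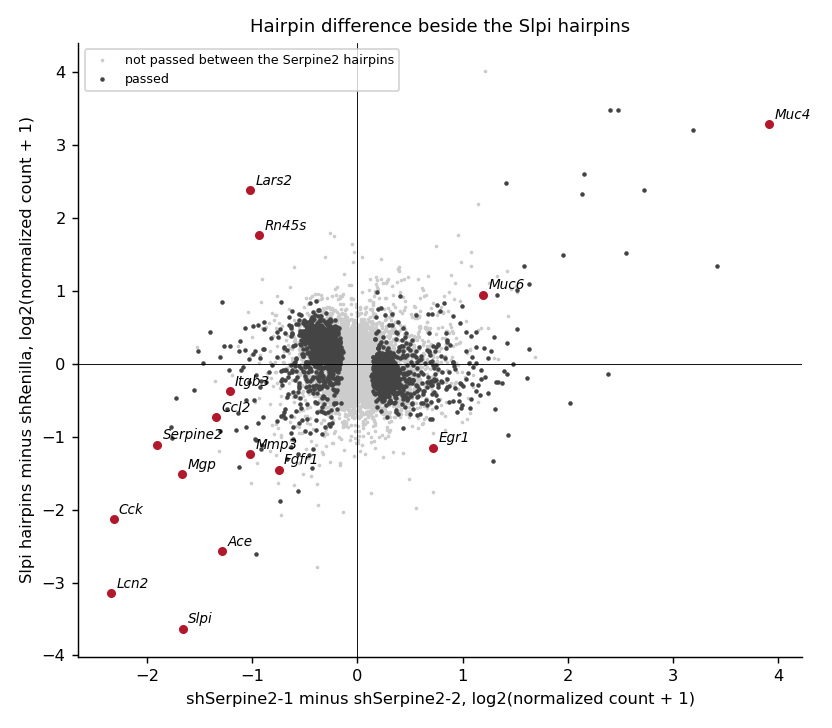
Each of 12299 genes by its difference shSerpine2-1 minus shSerpine2-2 (horizontal) and its difference Slpi hairpins minus shRenilla (vertical), both in log2(normalized count + 1); dark points changed between the Serpine2 hairpins. Serpine2, Slpi, Cck, Mgp, Ace, Lcn2 and Mmp3 lie at the lower left, Muc6 and Muc4 at the upper right. Lars2 and Rn45s lie at the upper left.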

How the data were processed

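Total RNA of 10 libraries was amplified from 100 ng with a NuGEN Ovation kit and sequenced with 76 bp reads, per the labels' protocols. The authors deposited 1 table of log2 values for 23479 gene entries. Bowtie2, HTSeq and DESeq with build mm10 are named in the submitters' processing notes. Their versions, the annotation and whether strand was used were not given in the sources used here, so reads of a gene and an overlapping antisense gene cannot be told apart. Every deposited column has the same lowest value, 6.73, which is the form of a variance-stabilizing transformation, as read from the values. It flattens weakly expressed genes, so the deposited log2 values were inverted to normalized counts. Dividing these by 1 step per library gave reads, 100% whole within 0.01 reads. Depth was 15877431 to 24026620 reads. Chi-square per degree of freedom between libraries A and B was 1.55 in shSerpine2-1 and 2.47 in shSerpine2-2, so neither pair is 1 library deposited again.

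Tests used limma 3.58.1 in R 4.3.3 (eBayes with a trend) on log2(normalized count + 1), which understates changes of weakly expressed genes. Genes averaging 10 or more normalized counts (12299) were fitted with 5 group means over 10 libraries, and p-values are two-sided. The fit recovered the larger known changes in simulated data, and its recovery of smaller ones is not given here. Those data had the same spread in every group and no trend on gene length, so they do not speak to either. The libraries, the gene lists and the tests were chosen with earlier results of these data known. Named genes are Serpine2, Slpi, Cck, Mgp and Muc6, the 14 largest rises and 14 largest falls among changed genes averaging 50 or more normalized counts with no overlap, up to 4 changed members of each list with the smallest p, and genes that changed most in both this comparison and the Slpi hairpins. Gene models without a proper name, and 27 entries turned into dates by spreadsheet software, were tested but not named, and 1 gene under this rule is not reported here. Lists are described by counts and medians, with no test of a list. Positions are from GENCODE M21 (GRCm38). Alternatives were the deposited values, other pseudocounts, filters, scalings and sets of libraries, robust eBayes, voom, a term for the library letter and, added after seeing the data, removal of a trend on gene length and scaling to total reads without Rn45s and Lars2.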

Additional observations from a re-analysis of the deposited data

Results flagged for a closer look

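In 23 genes both Serpine2 hairpins passed the test against shRenilla with opposite signs, 7 of them higher and 16 lower in shSerpine2-1 than in shSerpine2-2. The contrasts share the shRenilla libraries, and the difference between the hairpins was tested directly by limma. Of the 11 that are named, 9 were below shRenilla in shSerpine2-1 and above it in shSerpine2-2. Their differences between the hairpins on the log2 scale were -2.32 for Cck, -1.31 for Mmp9, -1.21 for Itgb3, -1.13 for Ptgs1, -0.84 for Ntn1, -0.60 for Ifitm3, -0.48 for Canx, -0.61 for Cyp1b1 and -0.93 for Rn45s.

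The mucin genes Muc6 and Muc4 were above shRenilla in shSerpine2-1 and below it in shSerpine2-2. They differed between the hairpins by 1.19 and 3.91, and the value of Muc4 rests on 1 and 3 reads in shSerpine2-2.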

How the results depend on the processing

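The 1805 changed genes between the hairpins became 1133 without a filter on low values (508 lower), 3599 with only the 4 Serpine2 hairpin libraries (1701 higher, 1898 lower) and 3185 without both shSlpi-2 libraries (1511 higher, 1674 lower). Leaving out 1 of the 4 libraries gave 404 to 696 (181 to 338 higher, 223 to 373 lower), where the lone library is assumed to vary like the other groups. Genes with the same direction as with the Slpi hairpins were then 79 to 97 and with the opposite direction 194 to 366, and the opposite ones were 504 without the filter and 404 with shSlpi-1 alone. The causes were not tested. The letters A and B do not pair libraries (correlations of -0.07 to 0.07), and with the replicate block 1816 genes changed (847 higher, 969 lower). No named gene reversed under any alternative. Of 161, 144 had a value under all 14 alternatives that leave out no single library, and 115 of these kept their call in each. Over all 161, 36 lost it in at least 1, and 14 and 3 genes had no value with a mean of at least 50 and with the length trend removed. In all 4 fits that leave 1 library out, 73 kept it. Beside a count of 0, up to 3 reads remain possible, counting error only.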
